A study of Acipenser sinensis with 45 samples.

Results

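The unigenes described here were those that stood above the gonads in every hypothalamus and pituitary group of the Chinese sturgeon, Acipenser sinensis. They were chosen by their measured FPKM, as the 200 of 121952 assembled unigenes with the highest score. The score was the lowest of the 6 group means of log2(FPKM + 1) in hypothalamus and pituitary minus the highest of the 3 group means in gonads. FPKM is the number of sequenced fragments scaled by the length of the unigene and by the mapped fragments of the library. The hypothalamus-against-gonad and pituitary-against-gonad differences chose the members, so they are described and not tested.

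The study sampled 3 tissues of 15 fish, which gave 45 libraries. The groups were females in stage II (F, 3 fish), males in stage II (M, 6 fish) and fish in stage I of undetermined sex (U, 6 fish), each with pituitary (P), hypothalamus (H) and gonad (G), written FP, MP, UP, FH, MH, UH, FG, MG and UG. Stage I fish were 1 year old and stage II fish over 4 years old, so that stage and age cannot be told apart. No treatment is given for any of them. The 6 libraries of female fish 2 and 3 came from a HiSeq 4000 and the other 39 from a HiSeq 2000. The tissue labels of male fish 4 conflict with its sample codes for hypothalamus and pituitary, and the codes were used.

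The hypothalamus releases peptides that reach the pituitary, and the pituitary releases gonadotropins that act on the gonad. The pituitary is built from an anterior lobe of hormone-secreting cells and a posterior lobe of supporting cells and the nerve endings of hypothalamic neurons. Both tissues thus hold cells with regulated secretion. The deposited table gives unigene codes only, so neither roles of the members nor markers of the tissues are given here. A code such as CL14440.Contig1_All is a contig of a cluster of similar transcripts, and a code such as Unigene45607_All is a single sequence.

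The members were low in gonads, but not absent from them. None of the 200 members was under 0.1 FPKM in all 15 gonad libraries (0 members), 58 were under 1 FPKM in all of them, and 139 were listed at 0 in at least 1 gonad library. At the other end, 31 members reached 5 FPKM or more and 12 reached 10 FPKM or more in some gonad library. In hypothalamus and pituitary, 176 members had 1 FPKM or more in all 30 libraries. For 162 members, every hypothalamus and pituitary library lay above every gonad library. The score chose the members by this contrast and no share over all unigenes is given here, so the count only describes the choice. The mean over the 6 hypothalamus and pituitary groups ranged from 4.00 to 947 FPKM with a median of 23.1 FPKM, and 20 members reached 100 FPKM or more.

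The summed FPKM of the 200 members was 12849 ± 1472 in FP (SD, n = 3), 12579 ± 848 in MP (n = 6) and 14474 ± 901 in UP (n = 6). It was 5322 ± 2671 in FH (n = 3), 9020 ± 815 in MH (n = 6) and 8935 ± 483 in UH (n = 6). In gonads it was 119 ± 35.5 in FG (n = 3), 240 ± 62.2 in MG (n = 6) and 210 ± 42.9 in UG (n = 6). The pituitary sums were thus above the hypothalamus sums in each kind of fish, and the gonad sums were far below both. The 3 most abundant members held 20.6% of the summed mean, and in males and stage I fish the median member did not follow the sum. Its level averaged 14.4 FPKM in FP and 12.0 in FH, 15.8 in MP and 24.9 in MH, and 20.2 in UP and 24.7 in UH. The 3 FH libraries held 3458, 8382 and 4125 FPKM. FH replicate 1 also had 45.2% of its FPKM in its 10 highest unigenes, against at most 21.0% in any other library of the series. In bulk tissue, fewer cells of a type and less RNA per cell cannot be told apart.

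**Figure D1:**
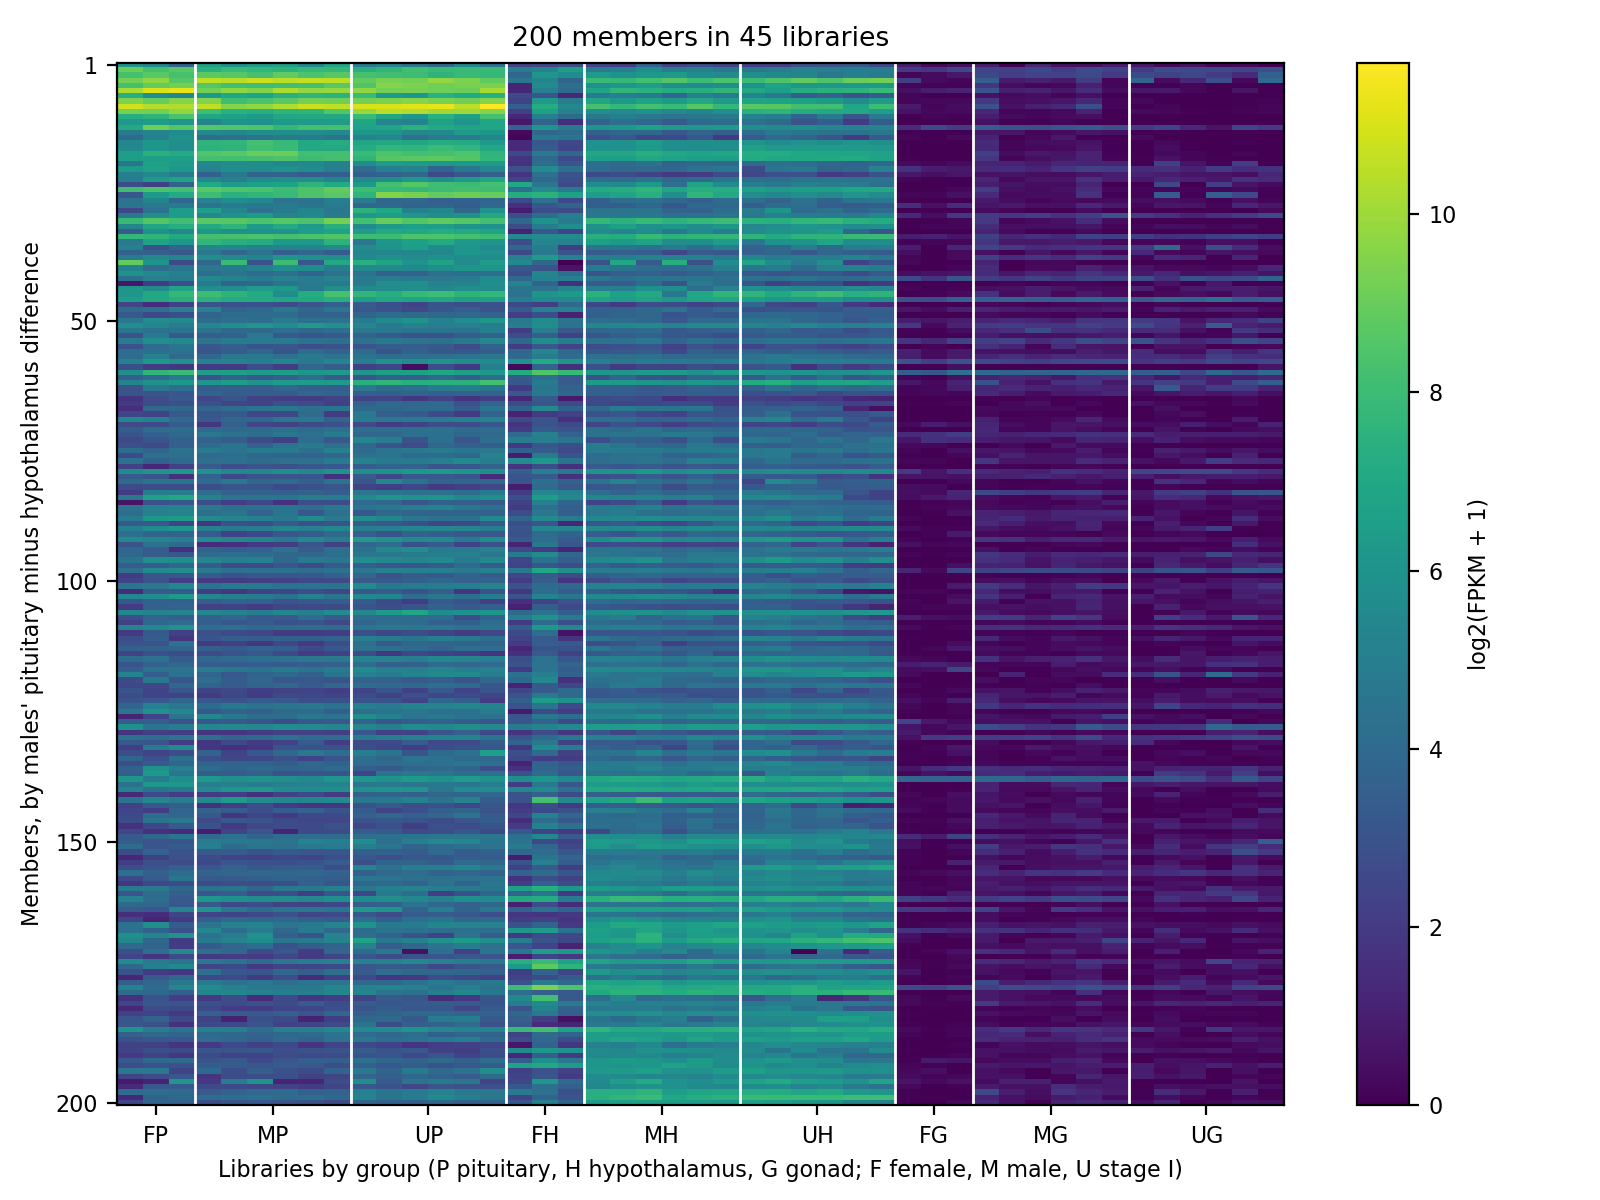
Heat map of log2(FPKM + 1) of the 200 members (rows, ordered by the difference between pituitary and hypothalamus in males) in the 45 libraries (columns, by group). The gonad libraries at the right are dark for most rows, the upper rows are brightest in pituitary and the lower rows in MH and UH, and the FH libraries differ among themselves.

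**Figure D2:**
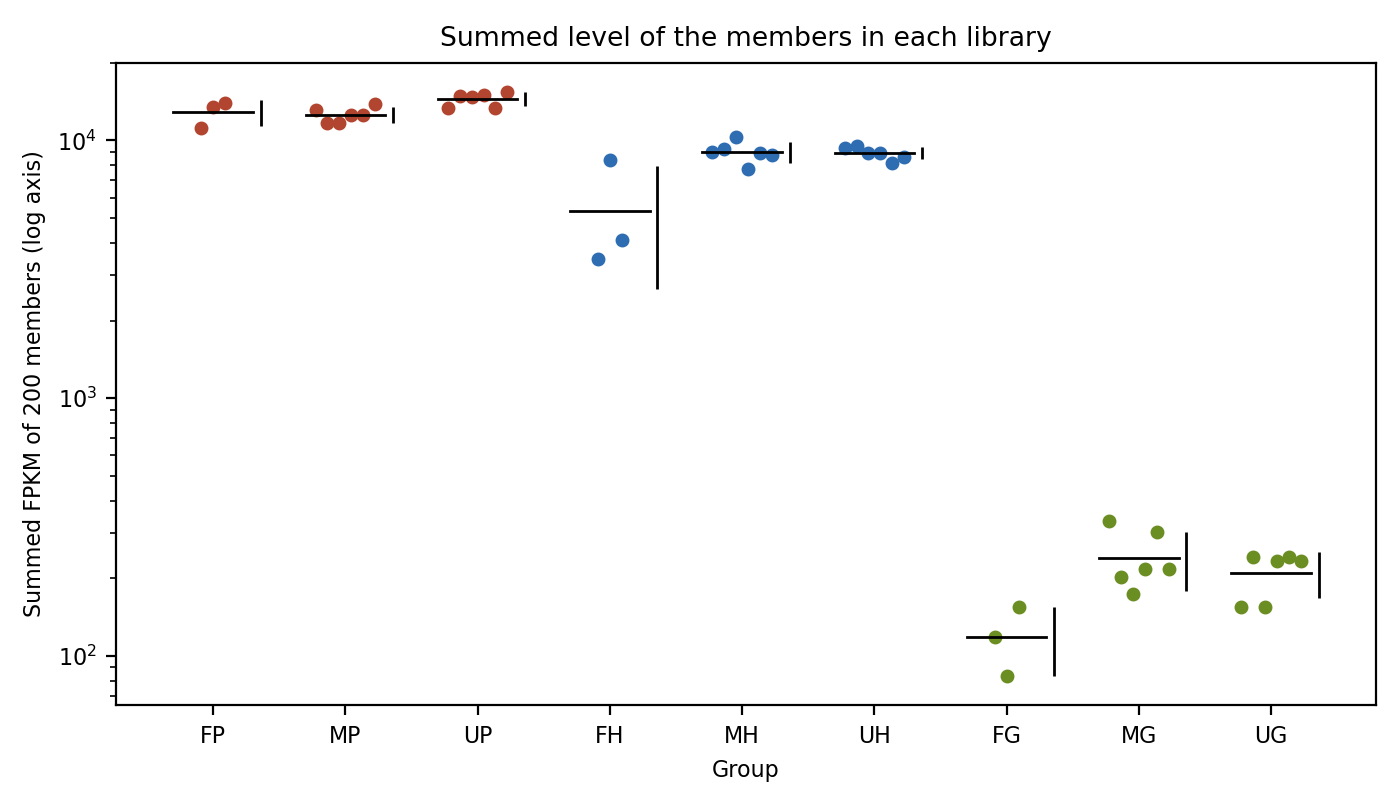
Summed FPKM of the 200 members per library (points) on a log axis, with the group mean (horizontal line) and SD (vertical line), n = 3 for F groups and n = 6 for M and U groups. Pituitary libraries lie between 11176 and 15433, and gonad libraries between 83.3 and 332.

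Among gonads, the group with the highest mean was MG for 132 members, UG for 52 and FG for 16. MG replicates 1 and 5 stood above the other MG libraries, with 100 and 91 members at 1 FPKM or more, against 43 to 60 in those 4. FG libraries had 18 to 30 such members and UG libraries 36 to 63. On the other side of the score, the lowest of the 6 groups was FH for 94 members, FP for 43, MP for 34, UH for 14, MH for 10 and UP for 5. The female groups, which have 3 fish each, thus set the lower bound for most members, and without the female groups only 82 of the 200 members would be chosen again.

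The highest score, 4.83, belonged to Unigene45607_All. It had 67.7, 136 and 222 FPKM in the 3 FP libraries, 50.3 to 308 (median 174) in MP and 153 to 265 (median 211) in UP. In hypothalamus it had 20.5, 64.9 and 78.7 FPKM in FH, 24.5 to 200.4 (median 135) in MH and 123 to 255 (median 194) in UH. The highest value in a gonad library was 2.30 FPKM, in MG replicate 1. Male fish 4 was the lowest of the 6 males in both tissues, at 50.3 FPKM in pituitary and 24.5 FPKM in hypothalamus. Every hypothalamus and pituitary library lay above every gonad library.

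CL14440.Contig1_All, with a score of 4.15, leaned to the pituitary. It had 600.1, 584 and 876 FPKM in FP, 165 to 384 (median 198) in MP and 737 to 1420 (median 1034) in UP. In hypothalamus it had 3.67, 103 and 32.8 FPKM in FH, 38.2 to 59.2 (median 49.8) in MH and 90.9 to 192 (median 143) in UH. In FH the SD of 51.1 was above the mean of 46.5, while MH and UH had SDs of 7.32 and 35.8.

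Unigene29955_All and Unigene15435_All, both with a score of 4.15, were highest in hypothalamus. Unigene29955_All averaged 30.1 ± 8.79 FPKM in FP, 51.5 ± 17.5 in MP and 26.3 ± 10.3 in UP, and 131 ± 62.8 in MH and 87.0 ± 22.4 in UH. Its FH libraries had 7.01, 307 and 44.4 FPKM, which covers the range of the other hypothalamus and pituitary groups. Unigene15435_All averaged 27.4 ± 7.81 FPKM in FP, 57.0 ± 11.8 in MP, 53.8 ± 16.5 in UP, 20.1 to 45.2 in FH, 133 ± 11.4 in MH and 116 ± 16.5 in UH. Its gonad group means were at most 0.609 FPKM.

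The last members inside the list were CL15967.Contig1_All and Unigene32106_All, with scores of 1.597 and 1.596. The next unigenes, Unigene9196_All and Unigene52833_All, both had a score of 1.595. Unigene32106_All, for example, averaged 3.14 ± 2.56 FPKM in FP, 21.8 ± 6.82 in MP and 44.0 ± 13.1 in UP, and Unigene9196_All 6.15 ± 3.23 in FP, 4.21 ± 1.36 in MP and 7.44 ± 1.36 in UP. The limit separates values that do not differ in kind, since 604 unigenes scored 1 or more and 7853 scored above 0.

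The most abundant members over the 6 groups were Unigene35458_All, Unigene42443_All and CL18661.Contig1_All. Unigene35458_All averaged 1503 ± 323 FPKM in FP, 1279 ± 403 in MP and 2268 ± 611 in UP, and 67.7 ± 72.8 in FH, 274 ± 68.4 in MH and 289 ± 104 in UH. Unigene42443_All averaged 1946 ± 663 FPKM in FP, 866 ± 217 in MP and 710 ± 230 in UP, and 16.8 ± 16.2 in FH, 163 ± 32.9 in MH and 163 ± 49.3 in UH. CL18661.Contig1_All averaged 608 ± 226 FPKM in FP, 1526 ± 126 in MP and 617 ± 162 in UP, and 24.9 ± 13.0 in FH, 284 ± 59.2 in MH and 417 ± 132 in UH. All of them had more FPKM in every pituitary group than in the hypothalamus group of the same fish.

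The highest values in gonad libraries belonged to Unigene47513_All (20.3 FPKM in a UG library) and Unigene8011_All (18.9 FPKM in an FG library). Unigene47513_All averaged 7.89 ± 3.19 FPKM in FG, 11.6 ± 1.26 in MG and 12.8 ± 4.55 in UG, with 39.7 ± 7.46 in FH as its lowest brain or pituitary group. Unigene8011_All averaged 12.2 ± 5.93 FPKM in FG, 13.8 ± 1.49 in MG and 10.5 ± 4.06 in UG, with 64.1 ± 5.98 in UH as its lowest. Both were therefore measured at all 3 sites of the axis.

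The question whether the members were shared evenly by pituitary and hypothalamus was tested within each kind of fish. The rule asked for a high level in every hypothalamus and pituitary group, which limits how uneven a member can be. All unigenes tested had only to reach 1 FPKM in enough libraries, so their shares are a reference and not a set matched by level. In UP against UH, 56 members were higher and 68 lower in pituitary at an adjusted p under 0.05 (limma), while 28.1% of all 80642 unigenes tested were higher and 18.2% lower. The members' shares were 28.0% higher and 34.0% lower. In MP against MH, 47 members were higher and 104 lower, or 23.5% and 52.0%, against 21.7% and 27.5% of all unigenes. The median difference of the members was -0.06 on the log2 scale in UP against UH, with 0.18 over all unigenes, and -0.50 in MP against MH, with -0.01 over all unigenes. With median-of-ratios scaling UP against UH gave 39 higher and 88 lower, against 17.3% and 26.3% of all unigenes, and the median over all unigenes shifted to -0.05. With the pituitary and hypothalamus of male fish 4 exchanged, limma called 0 members in MP against MH and 0 of all unigenes, while 116 members had an unadjusted p under 0.05. As coded, pituitary minus hypothalamus of male fish 4 had the direction of UP against UH for 119 of the 124 members called in that comparison, which holds no males, and for 107 to 116 in each other male.

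In FP against FH, 25 members were higher and 9 lower, or 12.5% and 4.5%, against 5.37% and 3.44% of all 56314 unigenes tested. The median difference of the members was 0.39, with 0.27 over all unigenes. With median-of-ratios scaling these medians were 0.02 and -0.01. In that run 21 members were higher and 12 lower, against 3.70% and 4.43% of all unigenes. With the fish as a block, which pairs the tissues of a fish, 53 were higher and 19 lower, against 11.5% and 7.46% of all unigenes. Within HiSeq 4000 (fish 2 and 3) 21 were higher and 6 lower, where 3147 of all 57086 unigenes were called. The count of 34 was 4 without FP replicate 2, 10 without FP replicate 3, 14 without FH replicate 3 and 18 without FH replicate 2. Calls over all unigenes fell as well, from 4966 of 56314. They were 1035 of 67130, 1520 of 67002, 1977 of 67654 and 1088 of 67375 in the same order. The lower counts are therefore not particular to the members.

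**Figure D3:**
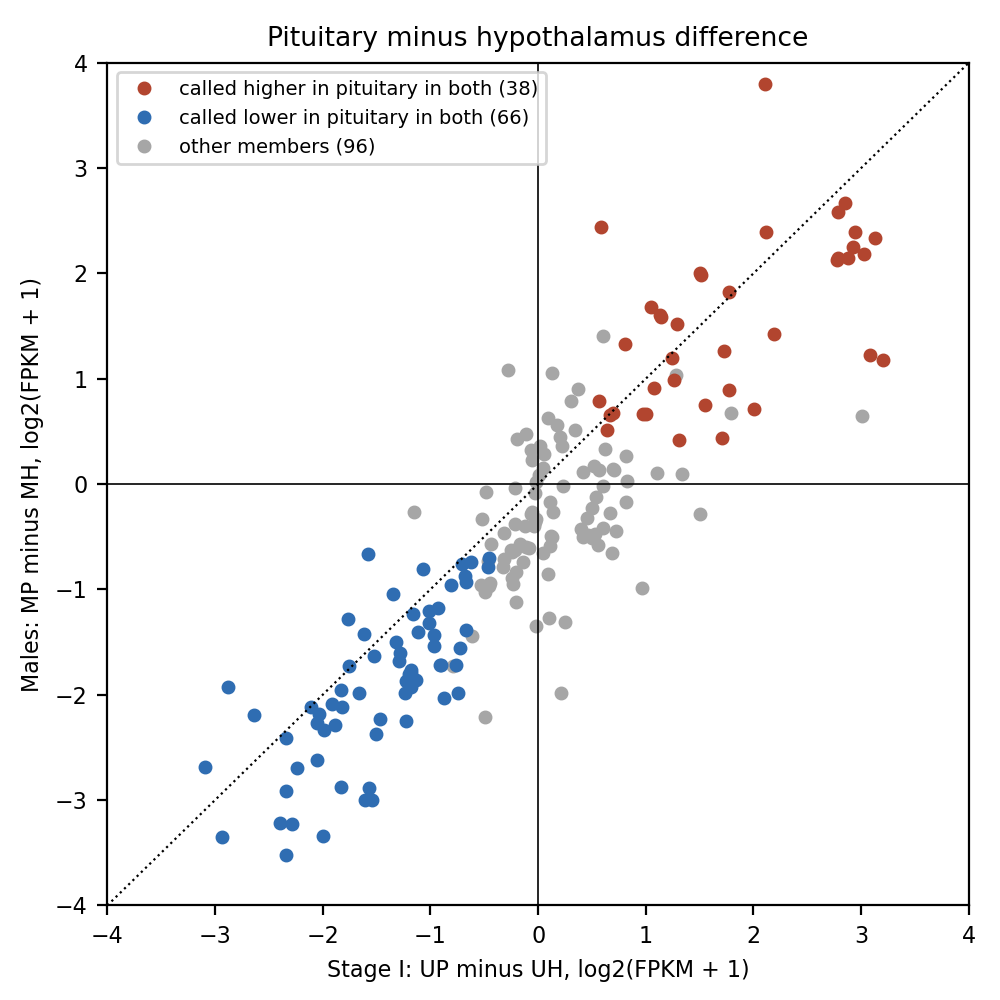
Difference between pituitary and hypothalamus of each of the 200 members in males (vertical axis) and in stage I fish (horizontal axis), in log2(FPKM + 1), with equality as a dotted line. The 38 members called higher and the 66 called lower in pituitary in both kinds of fish lie in opposite corners, and the other 96 lie nearer the centre.

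The tissue differences of the members lay close together in males and stage I fish, which share no library. Over the 200 members the differences had an r of 0.89 between males and stage I fish, given as a description, since contigs of a cluster and the choice of the members are shared. It was 0.54 between females and stage I fish and 0.65 between females and males. No r over all unigenes is given here, so these values do not show a trait particular to the members. In both males and stage I fish 38 members were higher in pituitary and 66 lower, 3 were higher in pituitary in stage I fish and lower in males, 0 the other way round, and 32 were called in neither. These are 19.0%, 33.0%, 1.5%, 0% and 16.0% of the members, against 17.2%, 16.7%, 0.189%, 0.0698% and 37.4% of the 74538 unigenes tested in both comparisons. Of the 38, 21 were also higher in FP than in FH (55.3%, against 17.4% of all such unigenes) and 0 lower. Of the 66, 9 were lower in FP (13.6%, against 20.9%) and 2 higher (3.03%, against 1.49%).

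The 66 members lower in pituitary in males and stage I fish had library medians of 6.98 to 10.8 FPKM in FP, 9.58 to 11.4 in MP and 12.9 to 16.4 in UP. They had 7.04, 18.9 and 9.41 FPKM in FH, 36.2 to 55.5 in MH and 41.3 to 52.6 in UH. The FH libraries thus lay near the pituitary level and below every MH and UH library. The 38 members higher in pituitary had medians of 66.8 to 88.7 FPKM in FP, 104 to 136 in MP and 114 to 150.0 in UP, and 5.11, 31.7 and 16.0 FPKM in FH, 28.3 to 49.1 in MH and 29.0 to 38.4 in UH. The members were split by these same MP, MH, UP and UH libraries, so only the female values are new to the split. The score that chose the members used FH and FP too. The female values, and the calls in FP against FH within the split, are thus not free of the choice.

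Of the members higher in pituitary in stage I fish, Unigene14274_All and Unigene26228_All had the highest fold changes. Unigene14274_All averaged 517 ± 185 FPKM in UP and 51.9 ± 8.19 in UH (log2 fold change 3.20, SE 0.25, adjusted p = 1.108e-07). Unigene26228_All averaged 145 ± 67.1 FPKM in UP and 16.8 ± 11.7 in UH (3.13, SE 0.39, adjusted p = 1.284e-05). Unigene26312_All and Unigene36038_All were lowest in pituitary. Unigene26312_All averaged 3.91 ± 1.02 FPKM in UP and 40.8 ± 7.81 in UH (-3.10, SE 0.17, adjusted p = 3.019e-09). Unigene36038_All had 22.5 to 46.0 FPKM in UP and 233 to 266 in UH (-2.93, SE 0.16, adjusted p = 2.392e-09).

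In males, Unigene64226_All averaged 91.1 ± 30.2 FPKM in MP and 5.80 ± 3.56 in MH (log2 fold change 3.80, SE 0.29, adjusted p = 4.627e-08). CL23267.Contig4_All averaged 209 ± 26.8 FPKM in MP and 32.6 ± 8.61 in MH (2.67, SE 0.15, adjusted p = 2.205e-09). CL21942.Contig2_All averaged 6.93 ± 1.00 FPKM in MP and 89.9 ± 9.55 in MH (-3.52, SE 0.11, adjusted p = 7.588e-12). Unigene36038_All, low in the stage I pituitary as well, averaged 16.6 ± 1.82 FPKM in MP and 182 ± 41.5 in MH (-3.35, SE 0.14, adjusted p = 1.389e-10). With male fish 4 exchanged none of these 4 passed the threshold, as for all unigenes.

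In females, Unigene42443_All had 1205 to 2483 FPKM in FP and 1.41 to 33.7 in FH (log2 fold change 7.39, SE 0.90, adjusted p = 0.00095). Unigene35458_All had 1273 to 1872 FPKM in FP and 10.8 to 149.8 in FH (5.12, SE 0.85, adjusted p = 0.004082), and missed the threshold without FP replicate 2. CL16292.Contig2_All had 5.88 to 6.81 FPKM in FP and 83.5 to 126 in FH (-3.82, SE 0.54, adjusted p = 0.001919). CL18997.Contig1_All had 16.4 to 42.1 FPKM in FP and 266 to 676 in FH (-3.71, SE 0.65, adjusted p = 0.00548). CL18997.Contig1_All had higher values in each FH library than in any MH library, where it had 126 to 164 FPKM, and missed the threshold without FH replicate 2 or FP replicate 2. Among the alternatives other than leaving out a library, Unigene42443_All, Unigene35458_All and CL18997.Contig1_All each missed the threshold in 1.

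Whether the tissue difference itself changed between males and stage I fish was tested as a difference of differences. MP-MH was higher than UP-UH for 5 members and lower for 28, against 0.681% and 2.47% of 91104 unigenes tested. The count of 33 was 50 with the fish as a block, 18 with median-of-ratios scaling (7 higher and 11 lower) and 13 with male fish 4 exchanged. Calls over all unigenes were 2874 in the main run, 4971 with the block, 2064 with median-of-ratios scaling and 587 with male fish 4 exchanged. Without a single fish the member count was 15 without male fish 2, 18 without male fish 3, stage I fish 3 or stage I fish 5, 19 without stage I fish 4 and 21 without male fish 1. Leaving out any of these fish gave 1437 to 1799 calls over all unigenes. CL18661.Contig1_All differed by 2.44 in males and 0.59 in stage I fish (difference 1.86, SE 0.27, adjusted p = 0.0004058), and missed the threshold with 1 fit over all 9 groups and with male fish 4 exchanged. Unigene64226_All differed by 3.80 in males and 2.11 in stage I fish (1.70, SE 0.40, adjusted p = 0.02036), and missed the threshold with male fish 4 exchanged and without male fish 1 or 6 or stage I fish 3 or 4. Unigene32106_All differed by 0.65 in males and 3.01 in stage I fish (-2.36, SE 0.42, adjusted p = 0.002772). Unigene14274_All differed by 1.18 in males and 3.20 in stage I fish (-2.02, SE 0.40, adjusted p = 0.006497), and missed the threshold with 1 fit over all 9 groups.

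**Figure D4:**
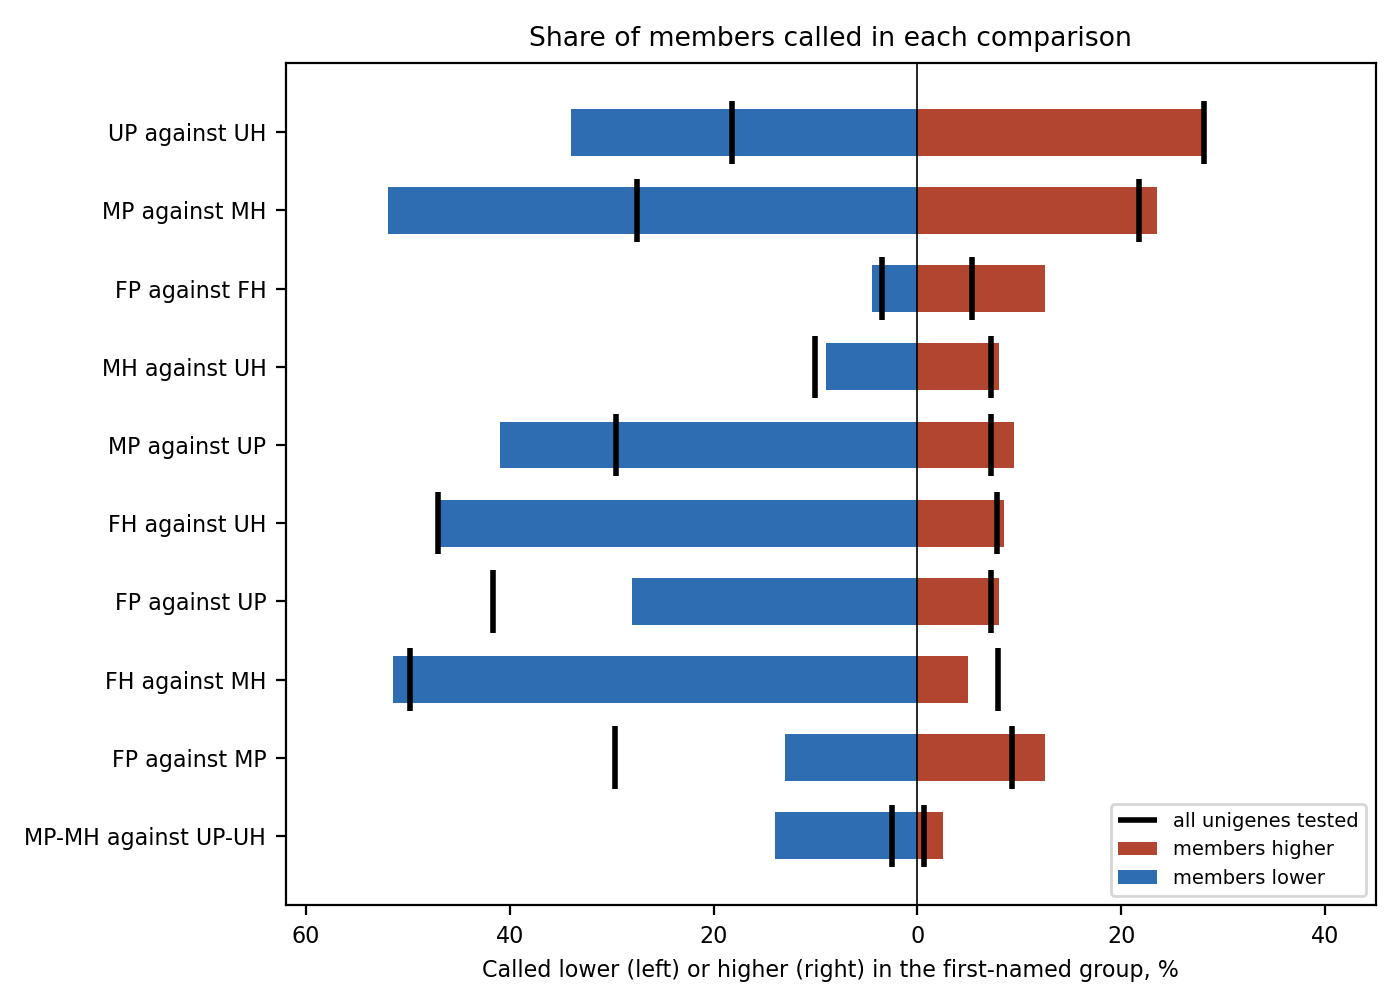
Share of the 200 members called higher (right) or lower (left) in the group named at the start of each comparison (limma, adjusted p under 0.05), with black lines for the share of all unigenes tested. The members' bars end near the lines in FH against UH and MH against UH. For lower calls they pass the line in UP against UH, MP against MH, MP against UP and MP-MH against UP-UH. They fall short of it in FP against UP and FP against MP.

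Stage and sex were compared within each tissue. Against stage I fish of undetermined sex, sex, stage and age cannot be told apart. In MH against UH, 16 members were higher and 18 lower (8.0% and 9.0%), against 7.21% and 10.1% of all unigenes, so the members' shares were near those of all unigenes. With median-of-ratios scaling 22 were higher and 15 lower, against 7.84% and 10.5%. In MP against UP, 19 members were higher and 82 lower (9.5% and 41.0%), against 7.26% and 29.6%. With median-of-ratios scaling these were 27 and 47 members, against 12.6% and 16.4% of all unigenes. The median of the members was -0.37 in MP against UP, with -0.23 over all unigenes. With male fish 4 exchanged the count fell to 66 in MP against UP and 18 in MH against UH, against 101 and 34 with the codes as given. Calls over all unigenes fell as well, from 28951 to 24007 in MP against UP and from 13439 to 6460 in MH against UH.

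In the hypothalamus, CL17795.Contig2_All averaged 78.9 ± 13.8 FPKM in MH and 44.8 ± 7.82 in UH (log2 fold change 0.80, SE 0.14, adjusted p = 0.00236). Unigene25581_All averaged 14.7 ± 1.49 FPKM in MH and 8.22 ± 1.31 in UH (0.78, SE 0.12, adjusted p = 0.001134). CL19361.Contig5_All averaged 20.1 ± 7.06 FPKM in MH and 63.4 ± 25.9 in UH (-1.59, SE 0.27, adjusted p = 0.001854). Unigene37383_All averaged 29.9 ± 7.17 FPKM in MH and 92.0 ± 21.9 in UH (-1.59, SE 0.18, adjusted p = 0.0001902). CL17795.Contig2_All missed the threshold with 1 fit over all 9 groups, and Unigene25581_All with male fish 4 exchanged.

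In the pituitary, Unigene64226_All averaged 91.1 ± 30.2 FPKM in MP and 29.0 ± 10.2 in UP (log2 fold change 1.61, SE 0.27, adjusted p = 0.000593), and missed the threshold with male fish 4 exchanged. CL18661.Contig1_All had 1390 to 1745 FPKM in MP and 455 to 893 in UP (1.34, SE 0.16, adjusted p = 8.913e-05). CL14440.Contig1_All had 165 to 384 FPKM in MP and 737 to 1420 in UP (-2.25, SE 0.22, adjusted p = 1.965e-05). CL19361.Contig5_All had 1.14 to 6.24 FPKM in MP and 8.35 to 29.6 in UP (-1.99, SE 0.36, adjusted p = 0.001087). It was thus lower in males than in stage I fish in both tissues. The summed contigs of its cluster were below stage I fish in females too. They averaged 18.1 FPKM in FP and 43.5 in UP, and 15.6 in FH and 132 in UH.

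The female hypothalamus was lower for many members, as it was for many of all unigenes. The score takes the lowest group mean, which was that of FH for 94 members. The rule thus limited how low a member could be in FH. The members' shares of lower calls in FH are not free of the choice, and are described only. In FH against UH, 17 members were higher and 94 lower (8.5% and 47.0%), against 7.83% and 47.1% of all unigenes. In FH against MH, 10 were higher and 103 lower (5.0% and 51.5%), against 7.90% and 49.8%. With median-of-ratios scaling these were 31 higher and 76 lower in FH against UH, against 16.5% and 34.2% of all unigenes, and 29 and 85 in FH against MH, against 16.6% and 34.5%. Member medians were -0.93 and -1.08, with -0.66 and -0.65 over all unigenes. Without FH replicate 1 there were 27 higher and 89 lower in FH against UH and 27 higher and 100 lower in FH against MH. Calls over all unigenes, in either direction, were then 51228 of 87289 and 56225 of 87494. On HiSeq 2000 only the females have 1 FH library, so no counts are given for it. Over the alternatives other than leaving out a library, HiSeq 2000 only among them, the member median varied. It ranged from -1.60 to -0.50 in FH against UH and from -1.69 to -0.64 in FH against MH. The run on HiSeq 2000 rests on 1 FH library, so it cannot show whether the members stay near all unigenes on 1 platform. The shares given above come from runs that hold both platforms. The platform and the fish of the females cannot be told apart.

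Unigene6049_All had 74.5, 192 and 432 FPKM in the FH libraries, 15.1 to 27.4 in MH and 7.46 to 24.1 in UH. Its log2 fold change was 3.53 in FH against UH (SE 0.51, adjusted p = 0.0001517) and 3.07 in FH against MH (SE 0.45, adjusted p = 0.0001449). Unigene8011_All had 147 to 362 FPKM in FH, 57.5 to 85.3 in MH and 57.8 to 72.3 in UH, with fold changes of 1.84 (SE 0.30, adjusted p = 0.0003873) and 1.63 (SE 0.30, adjusted p = 0.0007821). Members named for a comparison were picked among those whose libraries did not overlap, so their separation is no finding.

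Unigene36038_All had 4.26 to 12.3 FPKM in FH, 128 to 248 in MH and 233 to 266 in UH, which gave the lowest fold change of any member in both comparisons, -4.89 against UH (SE 0.30, adjusted p = 7.981e-07) and -4.42 against MH (SE 0.33, adjusted p = 1.762e-06). CL8691.Contig1_All had 2.34 to 14.8 FPKM in FH and 107 to 145 in UH (-4.28, SE 0.41, adjusted p = 9.324e-06). CL15741.Contig2_All had 2.99 to 5.85 FPKM in FH and 54.2 to 186 in MH (-4.02, SE 0.36, adjusted p = 5.698e-06). In all, 89 members (44.5%) were lower in FH than in both UH and MH, comparisons that share the FH libraries, against 42.3% of the 77932 unigenes tested in both.

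In the female pituitary the median difference of the members lay nearer 0 than that of all unigenes. The score takes the lowest group mean, FP included, so the rule kept out unigenes low in FP. The smaller share of lower calls among members is thus not free of the choice, and is described only. In FP against UP, 16 members were higher and 56 lower (8.0% and 28.0%), against 7.23% and 41.7% of all unigenes. The member median was -0.36, with -0.56 over all unigenes, and with median-of-ratios scaling 33 were higher and 32 lower, against 13.0% and 29.9% of all unigenes. In FP against MP, 25 were higher and 26 lower (12.5% and 13.0%), against 9.32% and 29.7%, and the member median was -0.03, with -0.36 over all unigenes. That count of 51 was 84 without FP replicate 1, while calls over all unigenes rose from 32066 of 82246 to 46830 of 86072. On HiSeq 2000 only the females have 1 FP library, so no counts are given for it. Over the alternatives other than leaving out a library, HiSeq 2000 only among them, the member median was not stable. It ranged from -0.61 to 0.02 in FP against UP and from -0.33 to 0.12 in FP against MP.

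CL15741.Contig2_All, low in the female hypothalamus, averaged 52.7 ± 11.8 FPKM in FP and 11.7 ± 6.01 in UP (log2 fold change 2.21, SE 0.41, adjusted p = 0.001395). CL11439.Contig1_All averaged 85.8 ± 16.9 FPKM in FP and 27.4 ± 11.7 in UP (1.71, SE 0.36, adjusted p = 0.002827). Neither passed the threshold on HiSeq 2000 only. Unigene6049_All averaged 29.7 ± 14.9 FPKM in FP and 4.42 ± 0.807 in MP (2.38, SE 0.31, adjusted p = 0.0007251), and CL7053.Contig1_All 42.0 ± 17.9 in FP and 12.1 ± 3.20 in MP (1.65, SE 0.30, adjusted p = 0.00255), of which CL7053.Contig1_All did not pass on HiSeq 2000 only.

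Unigene88013_All and Unigene32106_All were the lowest in FP in both comparisons. Unigene88013_All had 3.67 to 12.1 FPKM in FP, 83.3 to 194 in MP and 83.2 to 387 in UP, with log2 fold changes of -5.01 against UP (SE 0.45, adjusted p = 5.129e-05) and -4.04 against MP (SE 0.34, adjusted p = 0.0001471). Unigene32106_All had 0.628 to 5.75 FPKM in FP, 12.8 to 28.5 in MP and 26.3 to 57.6 in UP, with fold changes of -3.61 (SE 0.41, adjusted p = 0.0001272) and -2.63 (SE 0.42, adjusted p = 0.001486). In FP against MP, Unigene32106_All and Unigene6049_All each missed the threshold in 1 alternative, and CL7053.Contig1_All in 2.

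Female fish 1 was the lowest of the 3 females in both pituitary and hypothalamus for 96 of the 200 members, and for 24.6% of all 88450 unigenes compared. The same fish was lowest in both tissues for 63.5% of the members in females, against 53.2% of all unigenes, for 24.0% in males, against 25.2%, and for 29.5% in stage I fish, against 26.2%. In males and stage I fish the members were thus near the share of all unigenes.

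By the assembly, 93 members were contigs of 67 clusters and 107 were single, so 46.5% of the members and 53.0% of all unigenes came from clusters. In 21 clusters 2 or more contigs were members, and these share sequence, so they are not independent of each other. CL8691 had 4 members among its 4 contigs and CL14440 had 3 among its 3. The CL8691 contigs had group means of 55.6 to 138 FPKM in FP, 192 to 402 in MP and 125 to 336 in UP, and 4.87 to 15.5 in FH, 60.9 to 130 in MH and 58.9 to 132 in UH. The contigs of CL14440 had 462 to 687 FPKM in FP, 230 to 484 in MP and 603 to 1074 in UP, and 23.8 to 46.5 in FH, 49.3 to 97.9 in MH and 77.0 to 146 in UH. In both clusters each contig was higher in the pituitary than in the hypothalamus of the same kind of fish.

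**Figure D5:**
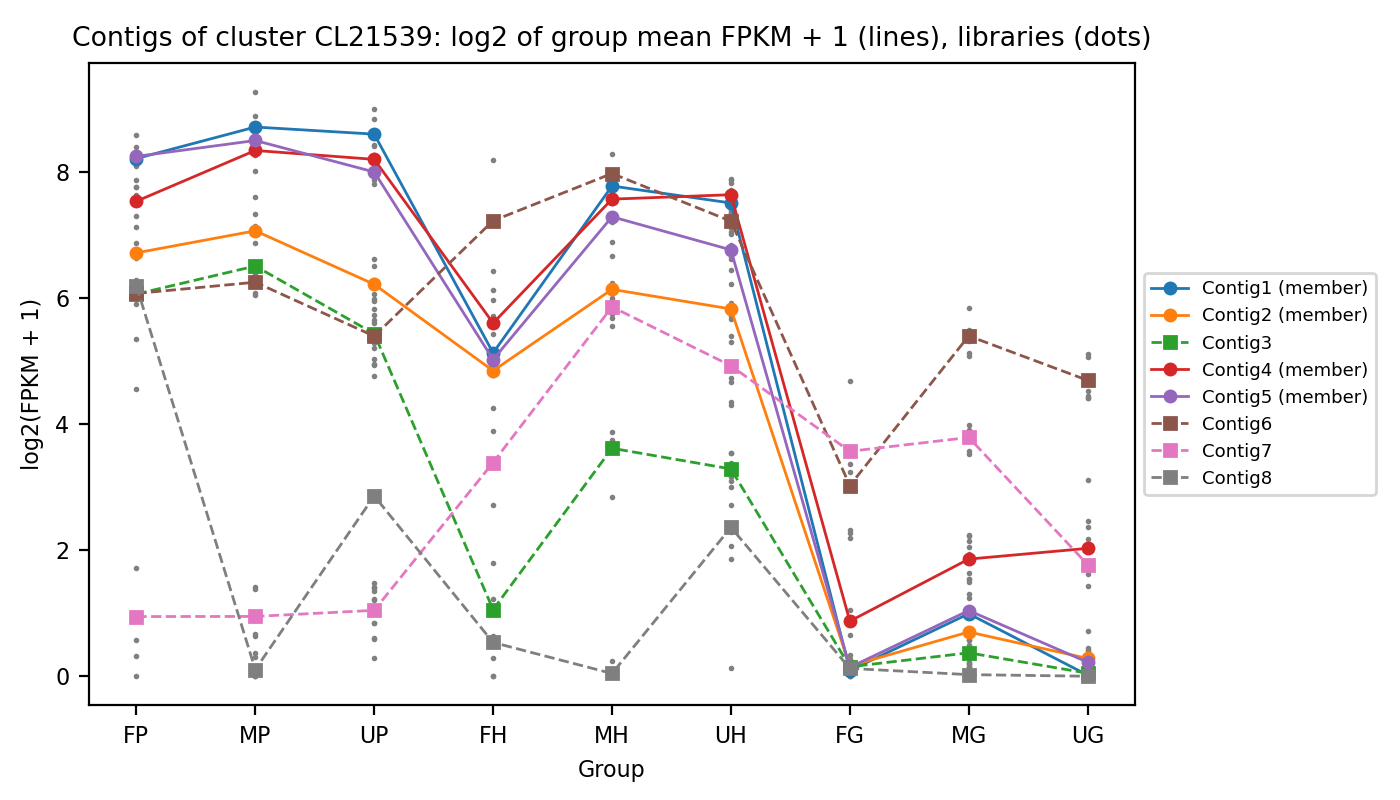
Group means of the 8 contigs of CL21539, as log2 of the mean FPKM + 1 (lines, solid with circles for the 4 members and dashed with squares for the others), with single libraries as grey dots. The members have gonad group means of at most 3.08 FPKM, while Contig6 and Contig7 reach 41.1 and 12.8 FPKM in MG.

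CL21539 had 4 members among 8 contigs. Its member CL21539.Contig1_All averaged 295 ± 77.1 FPKM in FP, 417 ± 101 in MP and 386 ± 85.2 in UP, 34.0 ± 24.5 in FH, 218 ± 27.9 in MH and 181 ± 30.2 in UH, and at most 0.987 in a gonad group. CL21539.Contig6_All, no member, averaged 7.13 ± 3.10 FPKM in FG, 41.1 ± 8.57 in MG and 24.9 ± 6.24 in UG, and 66.2 ± 9.70 in FP, 75.0 ± 5.50 in MP and 41.0 ± 10.8 in UP. CL21539.Contig7_All had 0.927 ± 1.20 FPKM in FP, 0.930 ± 0.575 in MP and 1.06 ± 0.430 in UP, with 57.0 ± 8.30 in MH and 29.3 ± 12.3 in UH, and 12.8 ± 1.76 in MG. Contigs of 1 cluster thus differed in where they were measured, and reads of similar contigs can be divided between them by the estimate.

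Other clusters had the same feature. The 67 clusters held 109 contigs that were not members, 13 of them in 10 clusters at 5 FPKM or more in a gonad group. CL14563.Contig3_All averaged 15.6 ± 5.02 FPKM in FG, 1.66 ± 0.327 in MG and 2.94 ± 2.69 in UG, while the member CL14563.Contig2_All averaged 1.47 ± 1.40 FPKM in FG, 3.07 ± 0.586 in MG and 3.36 ± 3.35 in UG. CL16898.Contig1_All averaged 4.96 ± 4.59 FPKM in FG, 14.5 ± 2.16 in MG and 6.09 ± 3.88 in UG, while the member CL16898.Contig2_All averaged at most 1.69 in a gonad group. When the contigs of a cluster were summed, 56 of the 67 clusters kept a score at or above that of the last member, and 1 fell below 0. The score of the sum was 0.64 for CL14563 and 0.22 for CL16898, against 2.28 for CL21539, 3.19 for CL8691 and 4.49 for CL14440.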

How the data were processed

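RNA of hypothalamus, pituitary and gonad was sequenced in 45 libraries of 15 fish. The authors filtered the reads, assembled unigenes de novo with Trinity and TGICL, and computed FPKM (fragments scaled by unigene length and by mapped fragments) with RSEM. The deposited table holds FPKM for 121952 unigenes in 45 sample columns, of which 0 were unused. No read counts were used, so the depth behind each value is known only as a relative depth read from low values, which spanned 0.79 to 1.41. Unigene codes were not paired with gene names (0 matched the reference table of 78555 genes).

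Members and tests were chosen with earlier results of these data known. The score of a unigene was its lowest group mean of log2(FPKM + 1) over the 6 hypothalamus and pituitary groups minus its highest over the 3 gonad groups, and the 200 highest were members. Each pair of groups was fitted by limma 3.58.1 (R 4.3.3, eBayes with a trend) on log2(FPKM + 1), so fold changes of low unigenes are understated. A unigene was tested if the libraries in which it reached 1 FPKM were no fewer than the smaller of both groups, with Benjamini-Hochberg adjustment over all of them and a threshold of 0.05. NOISeq, the program of the study, was not run. Tables and figures were made with Python 3.11.15, pandas 2.3.3 and matplotlib 3.10.9. Tested on simulated data made from UP and UH, the limma step called 60 of 100 unigenes changed by 1 and 98 of 100 changed by 3 on the log2 scale, with 6 false calls among 76594. Made from FP and FH it called 0 and 0, with 0 false calls among 56080. Only these 100 and 100 unigenes were changed there, while 4966 of 56314 were called in the real FP against FH. Benjamini-Hochberg adjustment is stricter when few unigenes differ, so the 0 calls do not measure detection in the real comparison.

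Hypothalamus and pituitary of a sex came from the same fish, as the sampling protocol states. Deviations from the group means over 107188 unigenes correlated between tissues of a fish by 0.46 to 0.63 in females, 0.22 to 0.36 in males and 0.12 to 0.41 in stage I fish. Between different fish the highest correlation was 0.14 in females, 0.09 in males and 0.17 in stage I fish. The hypothalamus was best matched by its own pituitary in 3 of 3 females, 6 of 6 males and 5 of 6 stage I fish. Male fish 4 was placed by the code in its titles, which conflicts with its tissue labels. The alternatives were median-of-ratios scaling, a pseudocount of 0.1, testing without a filter, 1 fit over all 9 groups, a log2 fold change of 1 or more, each library left out, the fish as a block, HiSeq 2000 only, and male fish 4 exchanged. HiSeq 4000 only for FP against FH was added after seeing the data. The named unigenes were the 4 members with the highest score, the last 2 inside and the first 2 outside the list, the 3 with the highest mean, the 2 with the highest value in a gonad library, and per comparison the 2 highest and 2 lowest fold changes among members past the threshold whose higher group averaged at least 10 FPKM and whose libraries did not overlap. The last 2 conditions did not apply to the difference of differences. The 3 clusters with the most members and the 3 whose other contigs were highest in gonads were also named.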

Additional observations from a re-analysis of the deposited data

Results flagged for a closer look

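Among 184 sets of 6 libraries examined (summed and median FPKM of the members, and the named unigenes in MP, UP, MH and UH), 17 had a library far from the other 5 by Dixon's criterion, which chance gives in about 1 of 20 sets. MH replicate 3 had 256 FPKM of Unigene29955_All (others 89.7 to 132), 12.9 of Unigene64226_All (others 3.50 to 5.72), 48.9 of CL23267.Contig4_All (others 24.1 to 32.9), 186 of CL15741.Contig2_All (others 54.2 to 88.5), 82.1 of CL8691.Contig3_All (others 52.2 to 62.7) and 87.1 of CL8691.Contig4_All (others 52.7 to 60.1). Male fish 4 had 14.4 FPKM of Unigene26228_All in MH (others 27.2 to 33.6).

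In MP, the far libraries were replicate 2 with 86.6 FPKM of Unigene29955_All (others 38.7 to 47.2), replicate 1 with 205 of Unigene52833_All (others up to 79.3), replicate 3 with 2.97 of Unigene6049_All (others 4.35 to 5.18), and replicate 6 with 615 of CL21539.Contig1_All (others 338 to 419) and 365 of CL21539.Contig4_All (others 306 to 324). In UP they were replicate 3 with 180 FPKM of CL17795.Contig2_All (others 109 to 134) and replicate 4 with 4.85 of Unigene6049_All (others 7.61 to 8.96). In UH they were replicate 2 with 44.0 FPKM of Unigene52833_All (others 4.13 to 9.44) and 105 of CL14440.Contig2_All (others 60.5 to 75.4), and replicate 6 with 20.3 of CL16898.Contig2_All (others 29.4 to 31.8).

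The difference between pituitary and hypothalamus itself differed between males and stage I fish for 33 members by limma's interaction test. For 10 of these (30.3%) the fitted tissue difference, called or not, had opposite signs in the 2 kinds of fish, against 35.3% of all 2453 unigenes so called and tested in both comparisons, and 3 members were called in opposite directions. The named ones were CL18661.Contig1_All (1.86 on the log2 scale, adjusted p = 0.0004058), Unigene64226_All (1.70, adjusted p = 0.02036), Unigene32106_All (-2.36, adjusted p = 0.002772) and Unigene14274_All (-2.02, adjusted p = 0.006497).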

How the results depend on the processing

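With a minimum change of 1 on the log2 scale, members called were 95 in MP against MH, 8 in MH against UH, 30 in MP against UP and 21 in MP-MH against UP-UH, by construction fewer. With 1 fit over all 9 groups they were 91 in FP against FH, 18 in MH against UH, 55 in MP against UP and 8 in MP-MH against UP-UH. With male fish 4 exchanged they were 0 in MP against MH, 18 in MH against UH, 66 in MP against UP and 13 in MP-MH against UP-UH. With no filter FP against FH had 4, where 121952 unigenes were tested. With median-of-ratios scaling MP-MH against UP-UH had 18. With the replicate block, 72 members were called in FP against FH and 50 in MP-MH against UP-UH, where the block is the fish, and 34 in FP against UP and 1 in FP against MP, where the samples share only a number (46 members had an unadjusted p under 0.05 in the last). Calls over all unigenes in FP against FH moved too: 4966 in the main run, 16914 with 1 fit over all 9 groups, 847 with no filter and 10705 with the block. With the block they were 17077 in FP against UP and 360 in FP against MP, from 41550 and 32066. With 1 fit over all 9 groups they were 8975, 21964 and 867 in MH against UH, MP against UP and MP-MH against UP-UH. The main run had 13439, 28951 and 2874. With the minimum change they were 3075, 6355 and 1662 in the same order, and 16531 of 39609 in MP against MH. The causes were not tested. Leaving out each library gave 119 to 125 in UP against UH, 149 to 155 in MP against MH, 4 to 26 in FP against FH, 27 to 43 in MH against UH, 88 to 98 in MP against UP, 101 to 120 in FH against UH, 61 to 90 in FP against UP, 105 to 135 in FH against MH and 38 to 84 in FP against MP, and leaving out each fish 15 to 44 in MP-MH against UP-UH. All other alternatives of these counts stayed within 1.5 times.

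The 40 fold changes of named members kept their direction under every alternative run (0 reversed of 692), and 27 values missed the threshold. Except in the difference of differences, these members were picked for large changes between libraries that did not overlap. Leaving out a library could not reverse such a change, so the 0 largely follows from the choice. The list itself depended on the processing: 136 of the 200 members were chosen again with a pseudocount of 0.1, 150 with median-of-ratios scaling, 175 with group medians, 162 to 169 without a female fish, 188 to 197 without a male or stage I fish, 192 with male fish 4 exchanged and 82 without the female groups. No counts were used, so values near 0 in gonads carry no interval.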
